A study of Mus musculus with 4 samples.

Results

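RGS proteins (regulators of G protein signalling) switch off heterotrimeric G proteins, and 9 of their genes were followed here in intestinal group 3 innate lymphoid cells (ILC3s) with and without Brg1. The 9 genes, Rgs1, Rgs2, Rgs3, Rgs10, Rgs12, Rgs14, Rgs16, Rgs18 and Rgs19, were taken by symbol from the 53379 genes of the expression table, and each symbol matched 1 row. Rgs1 and Rgs2 were among the most abundant transcripts of these cells. Rgs1 was lower in Brg1-deficient ILC3s than in controls, at 69.5% of the control mean, and Rgs14 was higher, at 170% of it. Both passed the looser limits of the study's gene list, applied here to a limma fit of FPKM rather than to the study's own test. By these limits 7.08% of all genes above 5 FPKM were lower and 6.25% higher. Neither Rgs1 nor Rgs14 passed an adjusted p of 0.05 by limma.

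ILC3s are lymphocytes without rearranged antigen receptors that guard the gut wall through IL-22 and IL-17. Brg1, encoded by Smarca4, is the ATPase of the SWI/SNF (BAF) chromatin remodelling complexes. To compare the groups within the same host, equal numbers of bone marrow cells from a pair of donors were given together to sublethally irradiated Rag2-/-Il2rg-/- mice, which lack lymphocytes of their own, including ILCs, but keep their myeloid cells. The Brg1-sufficient donor was Thy1.2 Rag1-/- Smarca4 f/f, and the Brg1-deficient donor was Thy1.1Thy1.2 Rag1-/- Smarca4 f/f with Smarca4 deleted in its ILC3s. ILC3s were sorted from the small intestinal lamina propria 6 to 7 weeks later as Thy1.2high CD45low cells, Thy1.1- for the control and Thy1.1+ for the deficient origin, and 2 libraries were sequenced per group. Both groups lacked Rag1 and carried the floxed Smarca4 alleles. The Thy1.1 marker went with the deletion, and the effects of these cannot be told apart. The donors' ages were not given in the sources used here, and neither was the number of recipients behind each library. The libraries are named biological duplicates. A p-value here weighs a difference against the spread between them, moderated by a spread estimated over many genes.

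The values are FPKM, the fragments mapped to a gene scaled by its transcript length and by the size of the library. Their sorted values were nearly equal across the 4 libraries: at 99.29% of the 13693 ranks with a mean above 1 FPKM, the libraries differed by less than 1%. Depth was not given with the values, so no counting error was computed for any level. Smarca4 was at 17.07 and 16.73 FPKM in controls and at 9.98 and 9.03 in the Brg1-deficient libraries (log2 fold change -0.77, adjusted p = 0.153). These values do not separate transcripts of the recombined allele from intact ones. All 11 ILC3 markers examined were above 1 FPKM in every library. Summed levels of ILC2 markers were 426.67 and 214.99 FPKM in controls against 116.31 and 141 in the deficient libraries. Hpgds was the only ILC2 marker that was higher in both deficient libraries, at 2.31 and 6.61 FPKM against 20.6 and 19.88. Summed levels of T cell markers were 134.62 and 59.57 against 34.62 and 45.17, although donors without Rag1 make no T cells with rearranged receptors. Of the 9 ILC1 and NK cell markers, some of which a subset of ILC3s also express, 2 were lower at an adjusted p under 0.05 by limma. These were Ncr1, the receptor NKp46, at 31.32 and 35.54 FPKM in controls against 5.37 and 6.02 (adjusted p = 0.0330), and Ifng at 22.75 and 37.28 against 3.42 and 3.22 (adjusted p = 0.0386). The sum of that list overlapped between the groups, at 246.06 and 367.35 FPKM against 256.46 and 247.56, with Klrk1 higher by the list limits described further on (104.52 and 112.64 against 165.32 and 189.76). B cell, mast cell, platelet and epithelial markers each summed to at most 11.21 FPKM in any library. Cd79b of the B cell list was also lower, at 8.68 and 10.02 FPKM in controls against 1.03 and 0.99 (adjusted p = 0.0386 by limma). The first control library stood apart by its ILC2 markers, with Calca at 112.72 FPKM there and at most 15.92 in the others.

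A receptor coupled to a G protein loads the Gα subunit with GTP, and Gα and the Gβγ pair then signal separately until Gα hydrolyses its GTP. RGS proteins speed up that hydrolysis and so shorten the signal. In lymphocytes they are best known for limiting responses to chemokines and other attractants, which act mainly through Gi. The R4 subfamily, small proteins that are little more than an RGS domain, holds Rgs1, Rgs2, Rgs3, Rgs16 and Rgs18. Rgs10, Rgs12 and Rgs14 form the R12 subfamily, of which Rgs12 and Rgs14 also bind Gα-GDP through a GoLoco motif, and Rgs19 (GAIP) belongs to the RZ subfamily.

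The family in ILC3s was dominated by a pair of R4 genes. Over the 22 Rgs genes examined (the 9 and 13 others), the summed level was 3791 and 4034 FPKM in controls and 2857 and 2990 in the Brg1-deficient libraries, so that the deficient mean was 74.7% of the control mean. Rgs1 and Rgs2 together made up between 95.7% and 97.0% of that sum in each library. The rest of the family summed to 114 and 136 FPKM in controls and to 108 and 128 in the deficient libraries, ranges that overlap. The difference in the family's sum was therefore carried by Rgs1 and, to a smaller extent, by Rgs2. Of the 13 other genes, 12 had a mean below 1 FPKM in both groups. The exception was Rgs9, an R7 gene best known from photoreceptors and striatum, at 1.78 and 2.98 FPKM in controls and 1.63 and 2.19 in the deficient libraries, which overlap (log2 fold change -0.20, adjusted p = 0.823).

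By level per length in the Brg1-sufficient libraries, the 9 genes ran from Rgs1 and Rgs2 through Rgs3 to Rgs10 and Rgs19, then Rgs14, Rgs12, Rgs18 and Rgs16. Only Rgs10 and Rgs19 overlapped as neighbours in that order. In the Brg1-deficient libraries Rgs14 moved up to stand beside Rgs19, with overlapping values, and Rgs10 moved below Rgs14 without overlap while still overlapping Rgs19. The other genes kept their places. The plot of FPKM by library shows these levels on a common axis.

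**Figure D1:**
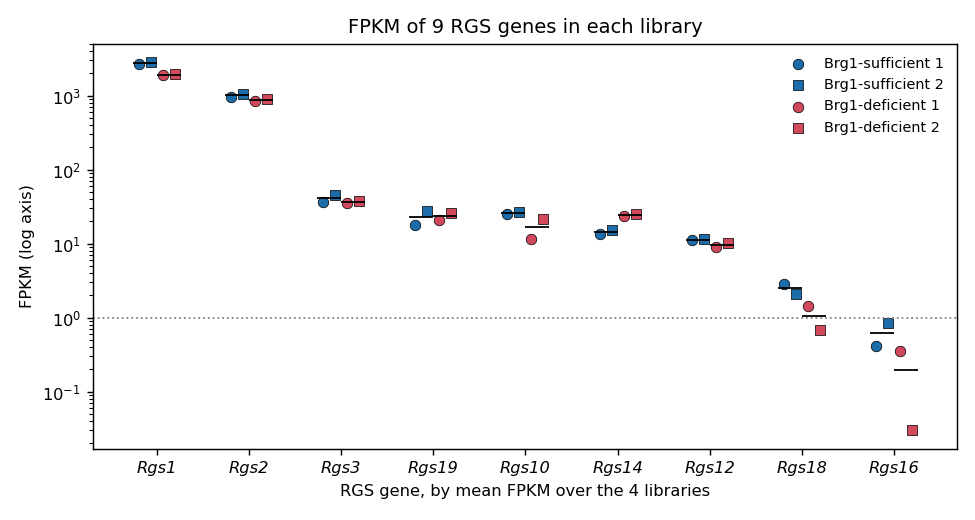
FPKM on a log axis of the 9 RGS genes in each of the 4 libraries (blue, Brg1-sufficient; red, Brg1-deficient; circle, library 1; square, library 2; black bars, group means; dotted line, 1 FPKM). Rgs1 and Rgs2 sit far above the other genes, from 852.31 to 2825.46 FPKM, and Rgs14 is the member whose red points both lie above the blue ones.

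Differences were tested in 8 of the 9 genes, those whose mean exceeded 1 FPKM in at least 1 group. The test was a limma fit of log2(FPKM + 1) to 14739 genes, with p-values adjusted over all of them by Benjamini-Hochberg. Fold changes are on that scale, which understates the change of genes at low FPKM. No member was called at an adjusted p under 0.05 in the limma fit, where 0.224% of all genes tested were lower and 0.0814% higher in Brg1-deficient cells. At an unadjusted p under 0.05, 1 member was lower, against 6.47% of all genes tested, and 1 was higher, against 6.12%. By the looser list limits (p under 0.05, adjusted p under 0.4, mean above 5 FPKM in either group and a log2 ratio of the means beyond 0.5), 1 of the 7 members above 5 FPKM was lower, against 7.08% of the 9095 such genes, and 1 was higher, against 6.25%. The members' median log2 fold change was -0.21, beside 0.03 for all genes tested. For 1 gene in 2 libraries per group, the smallest p of an exact permutation test (two-sided) is 0.333, and the adjusted p-values draw on a spread estimated over many genes.

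In 5 of the 8 tested members both Brg1-deficient libraries were below both controls, in 1 both were above, and in 2 the groups overlapped. Among all genes tested, both deficient libraries were below in 20.2% and above in 24.4%. The plot of log2 fold changes places the members in order, from Rgs18 at -0.78 to Rgs14 at 0.73.

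**Figure D2:**
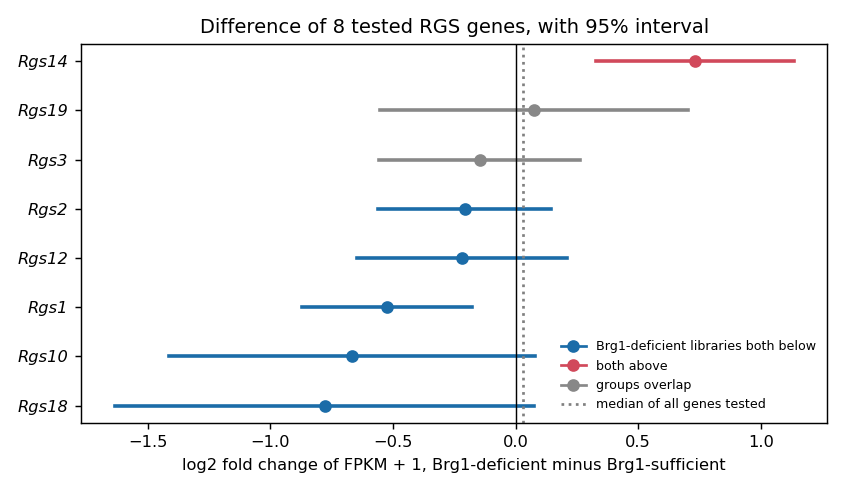
Log2 fold change of FPKM + 1 (Brg1-deficient minus Brg1-sufficient) of the 8 tested RGS genes, with the 95% interval from limma as a line; colour gives whether the 2 deficient libraries lie below, above or among the controls. The intervals of Rgs1 and Rgs14 leave out 0 and those of the other 6 genes include it; the dotted line marks the median of all genes tested, 0.03.

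Rgs1 dampens chemokine receptor signalling in lymphocytes and is known as a transcript of tissue-resident and activated lymphocytes. It was at 2720.61 and 2825.46 FPKM in controls and at 1896.71 and 1959.99 in the Brg1-deficient libraries. The control mean was 2773 ± 74.1 FPKM and the deficient mean 1928 ± 44.7 (SD, n = 2). Both deficient libraries were below both controls, and the gap between the groups was larger than the spread within either. The log2 fold change was -0.52 (standard error 0.138, 95% interval -0.87 to -0.18, adjusted p = 0.226). Rgs1 was the lower member by the list limits, and its log2 ratio of means, -0.52, was close to the limit of 0.5. Its place by mean FPKM among the genes tested was 31 in controls and 47 in the deficient group. Ncr1, Ifng and the summed ILC2 and T cell marker levels given above were also lower in both deficient libraries, and their part in the difference of Rgs1 was not tested. In bulk RNA, fewer cells of a type and less RNA per cell cannot be told apart. With any of the 4 libraries left out, Rgs1 no longer met the list limits (log2 fold change between -0.55 and -0.50). Each such fit had 1 residual degree of freedom, which limits the calls of every gene and not of Rgs1 alone.

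Rgs2, the R4 member that prefers Gq over Gi, was at 956.38 and 1072.67 FPKM in controls and at 852.31 and 902.96 in the deficient libraries. The deficient mean was 86.5% of the control mean. The groups did not overlap, but the distance between the nearest libraries was smaller than the spread between the controls, and the 95% interval of the log2 fold change of -0.21 ran from -0.56 to 0.15 (adjusted p = 0.606). The level of Rgs1 relative to Rgs2, a ratio chosen after the values were seen, was 2.84 and 2.63 in controls and 2.23 and 2.17 in the deficient libraries. Rgs1 was thus the more abundant of the pair in every library, by a smaller margin in the deficient ones.

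Rgs3, an R4 member with longer isoforms that acts on Gi and Gq, was the third in level. It was at 37.12 and 45.35 FPKM in controls and at 35.85 and 38.15 in the deficient libraries, which overlap. Its log2 fold change was -0.15 (95% interval -0.56 to 0.26, adjusted p = 0.743).

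Rgs18 is known from platelets and megakaryocytes, where it limits activation. It was near the lower limit of the tested range, at 2.89 and 2.1 FPKM in controls and at 1.44 and 0.68 in the deficient libraries. Both deficient libraries were below both controls, with a mean at 42.5% of that in controls. Its log2 fold change of -0.78 was the most negative of the members, and its 95% interval ran from -1.63 to 0.08 (adjusted p = 0.437). With a pseudocount of 0.1 in place of 1 the value was -1.23 (adjusted p = 0.424). Megakaryocyte and platelet markers summed to 4.75 and 7.61 FPKM in controls and to 5.69 and 9.86 in the deficient libraries, ranges that overlap. The part of these markers in the level of Rgs18 was not tested. Of these 6 markers 5 were below 1 FPKM in every library, and Pf4, at 3.15 to 8.02 FPKM, made up most of the sum.

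Rgs16, an R4 gene induced on lymphocyte activation, was hardly present. It was at 0.41 and 0.84 FPKM in controls and at 0.36 and 0.03 in the deficient libraries, and was not tested. The antisense gene Gm28513 overlaps it and was at 0 and 0.16 FPKM in controls and at 1.31 and 0.79 in the deficient libraries. RSEM was run with its default parameters, which do not use strand, so strand does not separate reads from any transcribed stretch that both genes share. Whether their exons overlap was not examined. The annotated genes that overlap Rgs3, Rgs10 and Rgs12 reached at most 0.95 FPKM in any library, below the level of each of those members.

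The R4 genes of chromosome 1 lie close together and differ widely in level. In GRCm38 (GENCODE M21), Rgs2 (143999338 to 144004161), Rgs13, Rgs1 (144242296 to 144249242), Rgs21 and Rgs18 (144752683 to 144775435) lie in this order within 776 kb, all on the minus strand, and are the 5 protein-coding genes among the 8 annotated there. Rgs13 was at 0 to 0.2 FPKM and Rgs21 at 0.13 to 0.7, so that these alternate with Rgs2 and Rgs1, at 852.31 FPKM or more. Rgs18, the last of the 5, was at 0.68 to 2.89 FPKM. The means of all 5 were lower in the deficient group, at 86.5% for Rgs2, 69.5% for Rgs1 and 42.5% for Rgs18. Only these 3 of the 5 passed the filter for testing. The pseudogene Gm7266 between them also passed it and was higher, at 0 and 0.74 FPKM in controls and 1.25 and 0.96 in the deficient libraries. Another pseudogene, Rbm6-ps2, was at 0 in both controls and at 0.2 and 0.01 FPKM in the deficient libraries. Among all genes tested, 6860 of 14739 had a negative log2 fold change. For Rgs13 and Rgs21 the groups overlapped, and of the 5 genes only Rgs1 met the list limits. Rgs16 (153740349 to 153745468, plus strand) lies on the same chromosome at a distance, with Rgs8 40.0 kb away from it and also below 1 FPKM in every library. The plot of levels by distance along chromosome 1 shows the alternation.

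**Figure D3:**
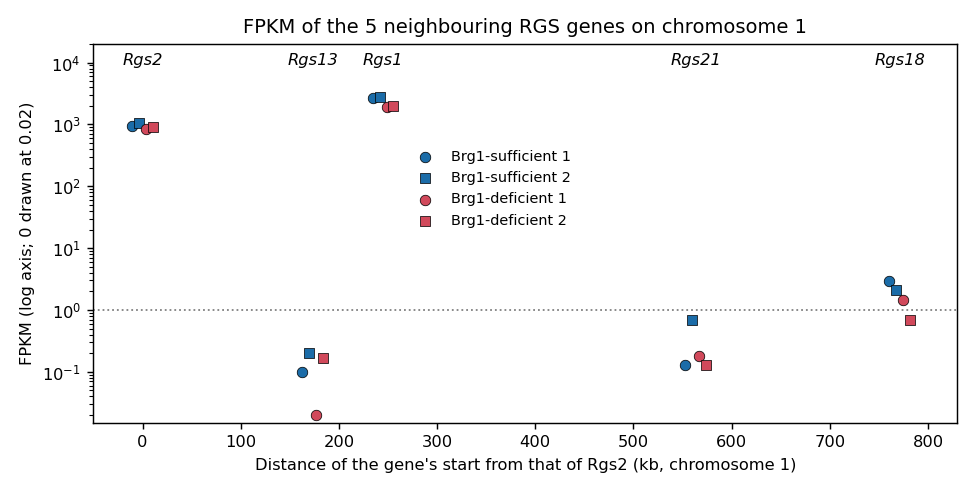
FPKM on a log axis of the 5 neighbouring R4 genes against the distance of their starts from that of Rgs2, in kb along chromosome 1 (blue, Brg1-sufficient; red, Brg1-deficient; points of a gene are set slightly apart). Rgs2 and Rgs1 lie at 852.31 FPKM or more, Rgs13 and Rgs21, which flank Rgs1, lie below 1, and the value of 0 for Rgs13 is drawn at 0.02.

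The 250 bases before the starts of Rgs2 and Rgs16 are shown (RefSeq, GRCm38.p6). These are R4 genes of 1 chromosome, and the highest and lowest in level of the members with a promoter window. Promoter windows were matched for 6 of the 9 members, and none was found for Rgs1, Rgs14 and Rgs18. Rgs2 is on the minus strand (chr1:144004150-144004399) and Rgs16 on the plus strand (chr1:153740103-153740352). Both are printed 5′ to 3′ toward the gene, with the matches to 4 motifs in capitals. On either strand these motifs were CCAAT (the CCAAT box), then TATAAA (the TATA box), then TGACG (the core of the cAMP response element) and finally CGGAAG (an ETS core).
Rgs2: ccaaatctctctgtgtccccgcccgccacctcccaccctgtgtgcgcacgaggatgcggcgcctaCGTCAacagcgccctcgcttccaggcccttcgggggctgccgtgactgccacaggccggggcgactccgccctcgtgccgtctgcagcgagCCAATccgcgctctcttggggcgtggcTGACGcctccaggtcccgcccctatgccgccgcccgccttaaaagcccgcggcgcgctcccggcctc
Rgs16: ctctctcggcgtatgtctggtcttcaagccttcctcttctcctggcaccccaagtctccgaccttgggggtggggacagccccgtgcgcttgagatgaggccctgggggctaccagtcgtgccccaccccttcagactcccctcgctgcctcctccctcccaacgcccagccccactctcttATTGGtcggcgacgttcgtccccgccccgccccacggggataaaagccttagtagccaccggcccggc
The Rgs2 window held CCAAT beginning 94 bases before the start and TGACG beginning 185 bases (as its reverse complement) and 67 bases before it. The Rgs16 window held CCAAT, as its reverse complement, beginning 68 bases before the start. The matches did not overlap one another, and neither window held TATAAA or CGGAAG. Among 32851 windows of this length, 33.8% held CCAAT, 17.8% TGACG, 12.4% TATAAA and 13.6% CGGAAG. The G and C content was 72.4% for Rgs2 and 66.4% for Rgs16, beside a median of 52.4% over all windows. These are matches of letters, and no binding was measured in the values analysed here.

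In the R12 subfamily, Rgs14 and Rgs10 stood on opposite sides. Rgs14, a scaffold that binds Gαi as well as Ras-type and Raf proteins, lies on chromosome 13 (55369732 to 55384687). It was at 13.54 and 15.38 FPKM in controls and at 23.81 and 25.41 in the Brg1-deficient libraries. The control mean was 14.5 ± 1.30 FPKM and the deficient mean 24.6 ± 1.13 (SD, n = 2), and both deficient libraries were above both controls by more than the spread within the groups. The log2 fold change was 0.73 (standard error 0.160, 95% interval 0.33 to 1.13, adjusted p = 0.164), and Rgs14 was the higher member by the list limits. It met those limits without either control library but not without either deficient library (adjusted p = 0.690 and 0.715 by limma), where none of the genes tested met them. Nor did it meet them with no filter on low FPKM (adjusted p = 0.444 over 44235 genes).

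Rgs10, a small Gi-directed RGS protein known from microglia and macrophages, lies on chromosome 7 (128373621 to 128418758). It was at 24.98 and 26.71 FPKM in controls and at 11.62 and 21.59 in the deficient libraries. The deficient libraries were both below the controls, at 64.2% of the mean, but they differed from each other by more than the second of them did from the controls. The log2 fold change was -0.67 (standard error 0.297, 95% interval -1.41 to 0.08, adjusted p = 0.444). Without the first deficient library it was -0.25, and without the second it was -1.09. The ratio of Rgs14 to Rgs10, chosen after the values were seen, was 0.54 and 0.58 in controls and 2.05 and 1.18 in the deficient libraries. Rgs10 was the more abundant of this pair in both controls and Rgs14 in both deficient libraries.

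Rgs12, a large multidomain member, was at 11.28 and 11.47 FPKM in controls and at 9.11 and 10.18 in the deficient libraries. The groups did not overlap, and the log2 fold change of -0.22 had a 95% interval from -0.65 to 0.21 (adjusted p = 0.632). Rgs19, the RZ member, which acts on Gαi and Gαz, was at 17.86 and 27.43 FPKM in controls and at 20.94 and 26.14 in the deficient libraries. The groups overlapped fully, and the log2 fold change of 0.08 (95% interval -0.55 to 0.70, adjusted p = 0.922) changed sign when the first control or the second deficient library was left out. In both groups the second library was the higher one for every member except Rgs16 and Rgs18, so this was not particular to Rgs10 and Rgs19. Markers of myeloid cells, which are known to express Rgs10 and Rgs19, summed to 150.94 and 336.17 FPKM in controls. In the deficient libraries they summed to 109.28 and 296.15, the second library again being the higher. The part of those markers in the levels of Rgs10 and Rgs19 was not tested. Of the 10 myeloid markers, none was at 0 in all libraries, and Lyz2 ran from 64.44 to 202.51 FPKM.

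The genes that RGS proteins act on or beside were examined as 8 lists, 107 genes in all, of which 66 were tested and 49 were above 5 FPKM. No gene of these lists was called at an adjusted p under 0.05 by limma, where at an unadjusted p under 0.05 there were 12 lower and 4 higher of the 66, beside 6.47% and 6.12% of all genes tested. By the list limits 10 of the 49 were lower, beside 7.08% of all genes above 5 FPKM, and 8 of the 10 were receptors. The 3 that were higher stand beside 6.25% of all such genes. The plot of partner genes by list gives every tested gene.

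**Figure D4:**
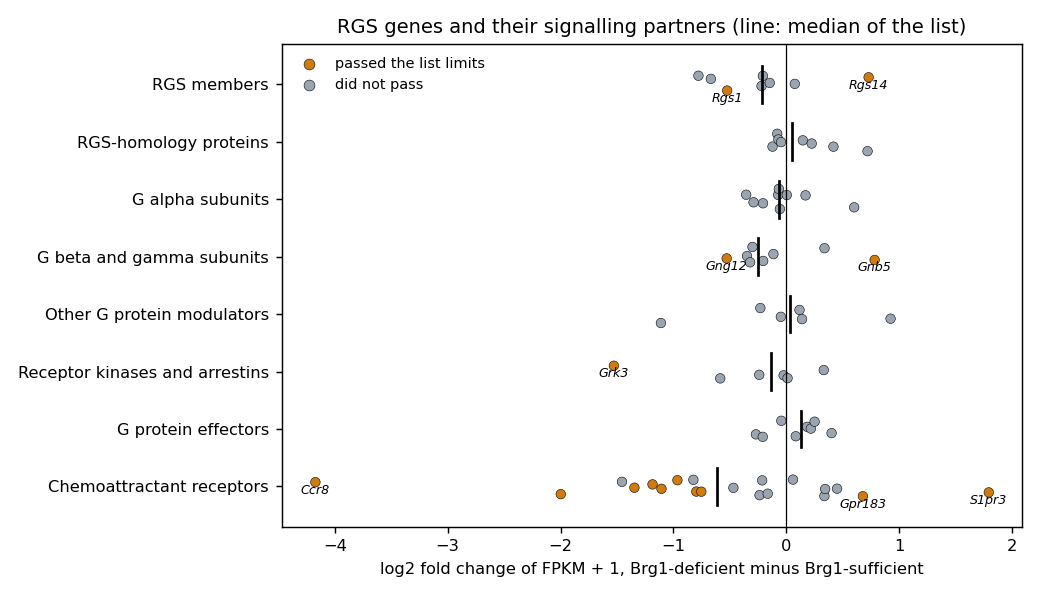
Log2 fold change of FPKM + 1 (Brg1-deficient minus Brg1-sufficient) of the tested genes in each list, with the members on top; orange points met the list limits, and the black line is the median of the list. The medians of the lists run from -0.61 for the receptors to 0.13 for the effectors, and Rgs9, the single tested gene of the other Rgs genes, is left out.

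Of the Gα subunits, the direct targets of RGS proteins, 9 of 13 were tested and none met the list limits in either direction. The median log2 fold change of the 9 was -0.07. The most abundant were Gna13, which couples to RhoA, at 158.4 and 124.66 FPKM in controls and 132.26 and 111.96 in the deficient libraries, Gnas (Gs) at 81.74 and 95.69 against 92.76 and 84.86, and Gnai3 (Gi) at 71.88 and 69.22 against 70.78 and 64.91. The groups overlapped for each of these 3 genes.

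Of 15 Gβ and Gγ genes 8 were tested, and 1 was lower and 1 higher by the list limits. Gnb5, the Gβ that pairs with R7 RGS proteins, was at 5.02 and 4.42 FPKM in controls and at 9.68 and 8.05 in the deficient libraries (log2 fold change 0.78, adjusted p = 0.220). Gng12 was at 53.24 and 64.81 FPKM against 36.77 and 44.47 (log2 fold change -0.53, adjusted p = 0.327). The R7 genes that Gnb5 serves, apart from Rgs9, were below 1 FPKM in every library. Gnb1, the most abundant Gβ, was at 288.39 and 193.09 FPKM in controls and at 190.54 and 187.1 in the deficient libraries. Its adjusted p was 0.604, and the first control library stood above the other 3. Gng5 was at 210.47 and 214.25 FPKM against 199.7 and 192.65, and Gng2 at 105.61 and 151.68 against 143.64 and 179.05.

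Receptor kinases and arrestins end signalling at the receptor rather than at the G protein. Of 7 genes 6 were tested, and 1 was lower by the list limits. That gene was Grk3, a kinase recruited by Gβγ, at 6.35 and 4.46 FPKM in controls and at 0.9 and 1.54 in the deficient libraries, 22.6% of the mean in controls (log2 fold change -1.53, adjusted p = 0.132). Arrb2 (β-arrestin) was the most abundant, at 25.54 and 30.06 FPKM against 22.23 and 24.45, followed by Grk2 at 15.29 and 15.74 against 17.88 and 13.67 and by Arrb1 at 9.09 and 13.32 against 11.87 and 9.87.

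None of 3 further lists had a gene that met the list limits. Of 9 proteins with an RGS-homology domain 8 were tested, and the most abundant were Arhgef1, a RhoA exchange factor that reads Gα12/13, at 41.66 and 57.89 FPKM in controls and 51.76 and 57.36 in the deficient libraries, Snx13 at 36.91 and 34.58 against 33.38 and 34.11, and Snx14 at 26.46 and 33.56 against 37.35 and 43.18. Of 7 other modulators 6 were tested, and the most abundant were Gpsm3, which binds Gαi-GDP, at 40.27 and 41.43 FPKM against 40.76 and 38.23, the Gα chaperone Ric8a at 30.44 and 49.22 against 34.66 and 31.2, and Ric8b at 5.92 and 5.04 against 6.82 and 5.29. Of 17 effectors 8 were tested, and the most abundant were Prex1, a Rac exchange factor driven by Gβγ, at 52.59 and 53.44 FPKM against 57.54 and 55.01, Plcb4, a phospholipase C of the Gq pathway, at 51.58 and 54.11 against 42.68 and 48.7, and the adenylyl cyclase Adcy7 at 25.2 and 43.84 against 45.57 and 43.03.

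Chemoattractant receptors, whose signals RGS proteins shorten, held most of the partner genes that met the limits. Of 24 receptors 20 were tested and 14 were above 5 FPKM, and by the list limits 8 were lower, against 7.08% of all genes above 5 FPKM, and 2 were higher, against 6.25%. The median log2 fold change of the 20 was -0.61, beside 0.03 for all genes tested. Ccr8 was at 51.74 and 8.41 FPKM in controls and at 0.23 and 0.24 in the deficient libraries (log2 fold change -4.17, adjusted p = 0.121). Ccr7 was at 45.88 and 20.91 FPKM against 8.05 and 6.11 (log2 fold change -1.998, adjusted p = 0.127). Ccr8 and Ccr7 were highest in the first control library, where the ILC2 and T cell marker sums were highest too, and the part of those markers in the receptors' levels was not tested. S1pr3, a receptor for sphingosine-1-phosphate, was at 8.32 and 11.64 FPKM in controls and at 40.35 and 33.3 in the deficient libraries (log2 fold change 1.79, adjusted p = 0.0612).

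The most abundant receptors did not move together. Cxcr6, the receptor for CXCL16, was at 375.91 and 448.2 FPKM in controls and at 442.3 and 413.75 in the deficient libraries, which overlap. Ccr6, the CCL20 receptor that marks lymphoid tissue inducer-like ILC3s, was at 185.82 and 203.32 FPKM against 92.86 and 105.78 (log2 fold change -0.96, adjusted p = 0.0901). Gpr183 (EBI2), a Gi-coupled receptor for oxysterols, was at 131.93 and 149.47 FPKM against 230.99 and 219.97 (log2 fold change 0.68, adjusted p = 0.142). In every library Rgs1 exceeded each of these receptors in FPKM, as did Rgs2.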

How the data were processed

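RNA was sequenced from 4 libraries of sorted ILC3s, 2 per group, single end on an Illumina HiSeq. Per the submitters' processing notes, the authors mapped reads to GRCm38.p5 with STAR v2.5 and quantified GENCODE M16 genes with RSEM v1.2 at default parameters, and they deposited FPKM values per gene and library in 1 table (53379 genes). Read counts were not used here and the depth is unknown. The step that made the sorted values nearly equal across libraries was not given in the sources used here, and differences in total RNA are absent from such values.

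The test was made in R 4.3.3 with limma 3.58.1, using lmFit without covariates and eBayes with trend, on log2(FPKM + 1) of the 14739 genes whose mean exceeded 1 FPKM in at least 1 group, and p-values were adjusted over these by Benjamini-Hochberg. The list limits come from the study's methods and were applied to this fit. The fit was run on simulated data with independent normal noise of the spread the fit itself had estimated. These libraries need not meet that setting. The 9 members and the gene and marker lists were chosen with earlier results of these data known. Named besides the members were, from each list, up to 4 genes meeting the limits by largest log2 fold change and up to 3 with the highest FPKM, other Rgs genes above 1 FPKM, and Smarca4. A gene that this rule names and part of a donor's genotype are not reported here. Alternatives were another pseudocount, other filters, no trend, other scalings, the library number as a block and leaving out each library. Gene positions came from GENCODE M21 and promoters from RefSeq, cut to the 250 bases before the start. The motifs and ratios were chosen after values were seen. Tables and figures were made with Python 3.11.15, pandas 2.3.3 and matplotlib 3.10.9.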

Additional observations from a re-analysis of the deposited data

How the results depend on the processing

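With 2 libraries per group and no read counts, small differences cannot be resolved. No member was called at an adjusted p under 0.05 in any fit. The counts of members and partner genes meeting the list limits were within 1.5 times of those reported with a pseudocount of 0.1, a filter at 5 FPKM, no trend, quantile normalization or equal medians. With no filter on low FPKM, 0 members were higher (Rgs14 at an adjusted p of 0.444, with 44235 genes tested). At an unadjusted p under 0.05, 2 members were lower with no filter, no trend or the block, and from 0 to 1 with a library left out. With the library number as a block, 2 members were lower, Rgs10 being added (adjusted p = 0.208), and the blocked counts of other calls reported were within 1.5 times. Over all genes, the block raised the calls at an adjusted p under 0.05 from 33 lower and 12 higher to 248 and 150, and no filter or no trend gave 0 and 0 (at an unadjusted p under 0.05, 1400 and 1308, and 965 and 903). A filter at 5 FPKM gave 73 and 41, and no filter left 236 lower and 161 higher genes by the list limits in place of 644 and 568. The labels do not say that the numbers pair the libraries, and deviations of same-numbered libraries did not correlate across genes (r = -0.000386).

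Each leave-one-out fit had 1 residual degree of freedom, and the lone library was assumed to vary like the other group. In these fits, members meeting the limits numbered 0 lower and from 0 to 1 higher, and partner genes from 0 to 7 lower and from 0 to 5 higher. The partner counts were 3 lower without the first control library and 0 in both directions without either deficient library. The sign of Rgs19 reversed without the first control library (-0.22) and without the second deficient library (-0.08), its range over these fits being -0.22 to 0.37, and no other member changed sign in any fit.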

Other observations

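A few partner genes below the limit of 5 FPKM were picked out after their values were seen. Gpsm2 (LGN), which binds Gαi-GDP through GoLoco motifs as Rgs14 does, was at 1.15 and 1.38 FPKM in controls and at 2.88 and 3.75 in the Brg1-deficient libraries (log2 fold change 0.92, adjusted p = 0.267 by limma). Ccdc88a (girdin), a non-receptor modulator of Gαi, was at 3.79 and 4.48 FPKM in controls and at 1.68 and 1.1 in the deficient libraries (log2 fold change -1.11, adjusted p = 0.198). S1pr1, which guides lymphocytes out of tissues, was at 4.71 and 1.94 FPKM in controls and at 0.56 and 0.43 in the deficient libraries (log2 fold change -1.46, adjusted p = 0.251), opposite in sign to S1pr3, and was highest in the first control library, which stood apart by its ILC2 markers. The groups did not overlap for these 3 genes, and as they were chosen by their values this is a description. Among all genes tested, both deficient libraries were below in 20.2% and above in 24.4%.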
